A study of Mus musculus with 23 samples.

Results

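Met encodes the receptor tyrosine kinase for hepatocyte growth factor. Its transcript was followed here over 23 primary mammary tumors of Brca1-deficient mice, as 1 gene of the 14535 in the expression table, chosen by its symbol. Met spans 17463800 to 17573980 on chromosome 6 of GRCm38, on the forward strand (ENSMUSG00000009376.15). Of the genes in the table, 12040 besides Met were tested against it, since their FPKM averaged at least 1.

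The ligand Hgf is made mainly by stromal cells as an inactive single chain, and proteases on the cell surface cut it into the active form. Active Hgf pairs Met receptors, which phosphorylate each other and recruit the docking protein Gab1 and adaptors such as Grb2, with signalling through the MAPK, PI3K and Stat3 routes. In the mammary gland the pair is known for its part in branching of the ducts, and extra copies of the MET gene are a known lesion of human carcinomas.

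The mice carried floxed Brca1 alleles (Brca1 fl/fl) deleted by Cre under the MMTV promoter, which is active in mammary epithelium, and some also carried a conditional Trp53 allele (Trp53 fl/+), on a mixed strain background. The labels put all tumors in 1 group and do not say which of them carried the Trp53 allele, so genotype was not used and its part in the results was not tested. They give no age. Each tumor was 1 library of bulk RNA, with no untreated or normal gland among the samples. In bulk RNA, fewer cells of a type and less RNA per cell cannot be told apart.

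Levels are given as log2(FPKM + 1). FPKM is a fragment count per unit of transcript length and of library size, and the added 1 understates the change of low genes. Depth is unknown. Each tumor had from 11829 to 12863 genes with nonzero values. Short non-coding RNA took 72.7% of the summed FPKM in X149T2 and 47.3% in X153T. The list of immediate-early genes, which cells switch on within minutes of a stimulus or of handling, divided the tumors into 15 with a high and 8 with a low score. The list of epithelial genes set 4 tumors (X520T, X738T, X9387T and X92T) apart from the other 19. Epcam, a defining epithelial marker, ranged from 0, listed in X520T, to 9.82, and Krt8 from 4.79 to 10.87. The titles hold 19 distinct numbers, 4 of them shared by a pair of tumors, and nothing in the labels says whether a pair came from 1 mouse. The p-values therefore reflect only how these 23 libraries vary.

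The promoter of Met is shown because 1 of the relations measured below is with immediate-early genes, many of which encode AP-1 factors. The RefSeq window of 300 bases around the start (GRCm38.p6, chr6:17463707-17464006, forward strand) is printed 5′ to 3′, with the only AP-1 motif in capitals.

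Met promoter window: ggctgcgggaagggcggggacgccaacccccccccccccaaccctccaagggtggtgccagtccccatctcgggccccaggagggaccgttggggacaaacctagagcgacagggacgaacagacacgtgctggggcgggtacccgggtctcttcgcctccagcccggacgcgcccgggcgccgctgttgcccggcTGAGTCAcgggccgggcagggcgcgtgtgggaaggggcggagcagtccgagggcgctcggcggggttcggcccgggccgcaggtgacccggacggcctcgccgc

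The AP-1 motif searched was TGAGTCA or TGACTCA on either strand, and TGAGTCA begins at position 197 of the window. At least 1 such motif was in 5.2% of the 32851 windows of the table. The GC box GGGCGG, searched on both strands, occurred 3 times in the Met window and at least once in 35.7% of all windows. Letters in a window are a description and not evidence of binding.

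Met varied far more between tumors than most transcripts. Its level was 9.55 in X153T, 9.36 in X437T, 9.23 in X2265T, 8.79 in X154T, 8.25 in X520T and 7.82 in X149T1. The next tumors were X9387T at 5.67 and X92T at 5.61. The largest gap in the order, 2.15 log2 units, lay between X149T1 and X9387T, a 4.50-fold difference in FPKM. The second largest gap was 0.92, so the tumors on either side of the main gap were far closer to their neighbours than X149T1 was to X9387T.

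Below the gap Met fell off in small steps. It was 4.69 in X370T, 4.59 in X1515T, 4.22 in X493T1 and 4.15 in X1310T2, the median tumor. Then came 3.87 in X4351T, 3.74 in X1463T1, 3.57 in X1418T and 3.56 in X731T. The lowest values were 2.98 in X738T, 2.75 in X606T, 2.53 in X1463T2, 2.44 in X493T2, 2.21 in X1310T1, 1.56 in X149T2 and 0.94 in X147T. With 1 library per tumor there is no replicate error by which neighbours in this order could be told apart. No tumor was listed at 0.

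In FPKM, Met ran from 0.921 in X147T to 746 in X153T, a ratio of 810. The mean on the log2 scale was 4.87 ± 2.67 (SD, n = 23), against a median SD of 0.71 over the tested genes. By SD Met ranked 38 of 11523 tested protein-coding genes. Within X153T it was the transcript of rank 66 among 14369 genes other than short non-coding RNA, and within X149T1 of rank 303. In X92T and X9387T its ranks were 1341 and 1382, and in X147T 10797.

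**Figure D1:**
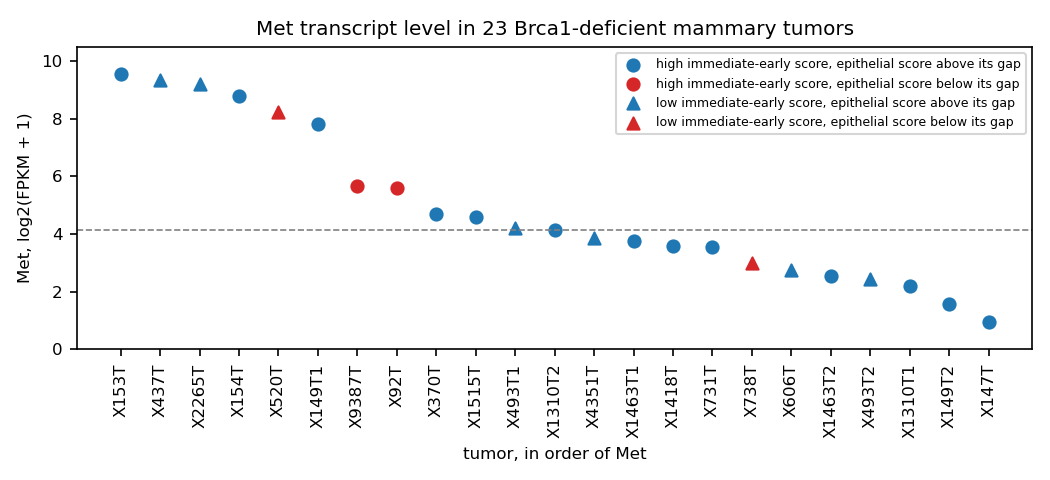
Met in log2(FPKM + 1) for each of the 23 tumors, in falling order, with the median tumor at the dashed line. Circles are tumors with a high and triangles those with a low immediate-early score, and red marks the 4 tumors below the gap in the epithelial score. Both shapes occur among the 6 tumors between 7.82 and 9.55, and 1 of these is red.

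The 6 tumors with the most Met were of both kinds in the immediate-early and the epithelial score. In the basal score, which set 3 tumors (X149T2, X1515T and X731T) above the other 20, all 6 belonged to the 20. X520T, X2265T and X437T belonged to the 8 tumors with a low immediate-early score, and X153T, X154T and X149T1 to the 15 with a high one. Of the 4 tumors low in epithelial genes, X520T had Met at 8.25, X9387T at 5.67, X92T at 5.61 and X738T at 2.98. The same 6 tumors were highest when libraries were rescaled by their median ratio, when short non-coding RNA was left out, and with a pseudocount of 0.1.

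Tumors that shared a title number differed in Met. X149T1 had 7.82 and X149T2 had 1.56, a difference of 6.25 log2 units. The other pairs differed by 1.94 (X1310T1 and X1310T2), 1.78 (X493T1 and X493T2) and 1.21 (X1463T1 and X1463T2).

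Of the genes beside Met on chromosome 6, Cav2, Capza2 and St7 had the same 6 tumors at the top, while Tes and Cav1 shared 4 of them. In order along the chromosome the tested genes within 1 Mb were Tes, Cav2, Cav1, then Met, then Capza2, St7, Cftr and Cttnbp2, with Mdfic before and Lsm8 after them. Capza2 (chr6:17636234-17666972) encodes a subunit of the protein that caps actin filaments and begins 62254 bases after Met ends. It was 11.66 in X2265T, 11.19 in X437T, 11.09 in X153T, 11.08 in X154T, 10.16 in X149T1 and 10.15 in X520T. The remaining 17 tumors lay between 5.11 and 6.73, so Capza2 left a gap of 3.42 log2 units with the same 6 tumors above it as Met.

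St7 (chr6:17692933-17943025), suppressor of tumorigenicity 7, is the next gene. It was 8.01 in X2265T, 7.76 in X437T, 7.22 in X153T, 7.05 in X154T, 6.82 in X520T and 6.52 in X149T1. In the other tumors it lay between 1.43 and 3.59. The order of the 6 tumors differed from that of Met, with X2265T first for St7 and Capza2 and X153T first for Met.

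Cav2 (chr6:17281185-17289115) encodes caveolin 2, a coat protein of the membrane pits called caveolae, and ends 174685 bases before Met starts. It was 9.64 in X154T, 9.61 in X149T1, 9.42 in X153T, 9.40 in X437T, 9.06 in X2265T and 8.69 in X520T. The other 17 tumors lay between 1.58 and 5.96. Of the 12040 tested genes, Cav2, Capza2 and St7 alone, 0.0249%, had the same 6 highest tumors as Met, and these same 3 genes met that condition under each of the 3 other scalings.

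**Figure D2:**
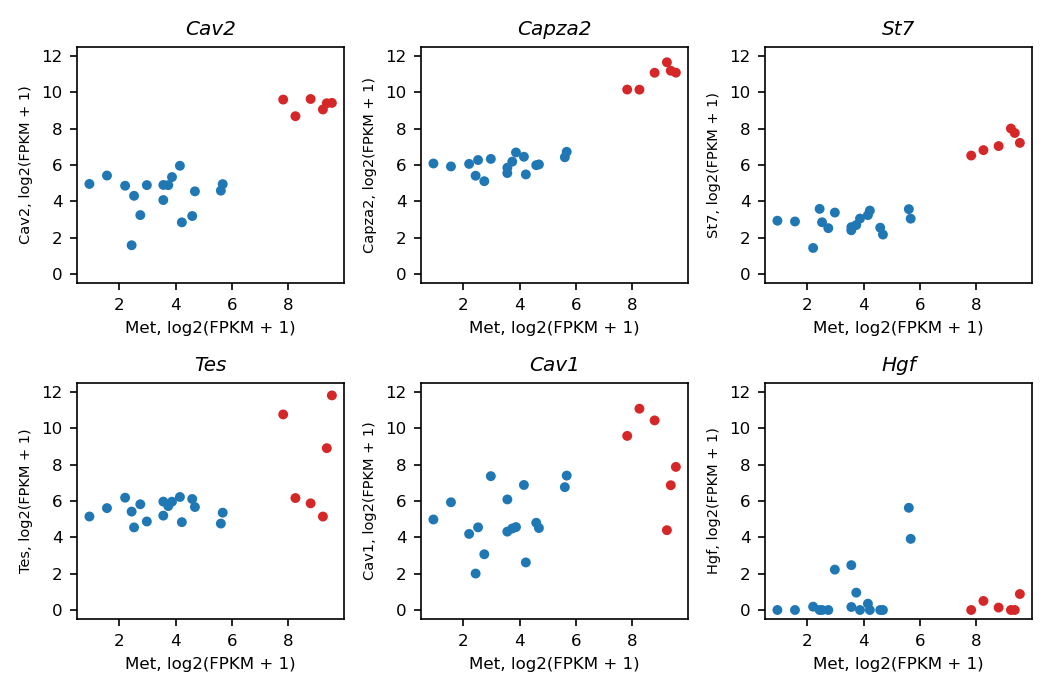
Each panel plots 1 gene against Met over the 23 tumors, both in log2(FPKM + 1), with the 6 tumors highest in Met in red. Cav2, Capza2 and St7 are high in all 6, Tes and Cav1 in some of them, and Hgf is 0.88 or lower in each.

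Farther out the 6 tumors parted. Tes (chr6:17065149-17105828), a LIM-domain protein of focal adhesions, was 11.82 in X153T, 10.77 in X149T1 and 8.91 in X437T. In X520T it was 6.17, in X154T 5.87 and in X2265T 5.15, within the range of 4.55 to 6.23 over all tumors outside the top 3. Mdfic (chr6:15720661-15802169), an inhibitor of MyoD-type factors, stood out in X153T alone at 8.50, with the next tumor at 5.29.

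On the other side, Lsm8 (chr6:18848579-18855751), a part of the ring that binds U6 small nuclear RNA, stood out in X437T alone at 9.05, with the next tumor at 6.58. Cftr, the chloride channel gene, was 4.99 in X154T, 2.96 in X149T1, 2.66 in X153T and 2.57 in X437T. It was 0.72 in X520T and listed at 0 in X2265T. Cttnbp2, which encodes a cortactin-binding protein, was 4.16 in X520T and 3.97 in X437T, with the next tumor at 1.79. Wnt2, a secreted ligand below the filter on low values, was 2.81 in X154T and at most 0.52 elsewhere. Cftr, Cttnbp2 and Wnt2 were listed at 0 in most tumors, so their deviations are counted from a median of 0.

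Cav1 (chr6:17306335-17341452), which encodes caveolin 1 and lies between Cav2 and Met, did not follow them in every tumor. It was 11.09 in X520T, 10.44 in X154T and 9.59 in X149T1. It was 7.88 in X153T and 6.87 in X437T, where tumors below the gap in Met reached 7.40. In X2265T it was 4.40, under its median of 4.98, although Cav2 at 9.06 and Met at 9.23 flank it there.

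**Figure D3:**
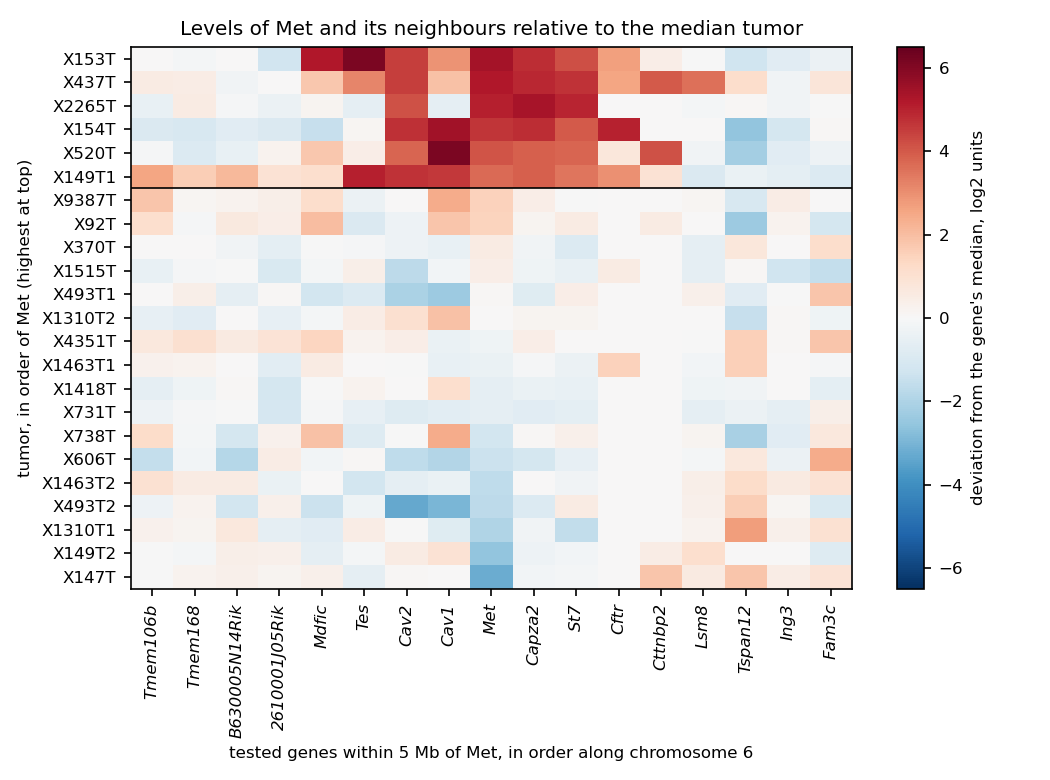
Deviation of each tested gene within 5 Mb of Met from its median over 23 tumors, in log2 units, with genes in order along chromosome 6 and tumors in order of Met. The 6 rows above the line are red from Cav2 to St7, apart from Cav1 in X2265T at -0.59, and differ in how far the red reaches.

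To describe how far this reached in each tumor, consecutive tested genes that lay 2 or more log2 units above their median were followed outward from Met. The rule was chosen after the values were seen. In X153T the run held 8 genes from Mdfic to Cftr and spanned 2.60 Mb. In X149T1 it held 7 genes from Tes to Cftr, 1.26 Mb. In X154T it held 6 genes from Cav2 to Cftr, 1.04 Mb, and in X520T 5 genes from Cav2 to St7, 0.662 Mb. The ends therefore fell at different genes in different tumors.

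In X437T the run held 6 genes from Met to Lsm8, 1.39 Mb, and in X2265T the 3 genes Met, Capza2 and St7, 0.479 Mb. In both, Cav1 broke the run, with deviations of 1.89 and -0.59. The genes shared by the runs of all 6 tumors were Met, Capza2 and St7. Cav2 too lay 3.79 to 4.73 above its median in all 6, but beyond the break at Cav1 in X437T and X2265T. In X437T Tes also lay beyond the break, with a deviation of 3.19. At a deviation of 3 the runs of X153T and X437T shortened to Met, Capza2 and St7, and the other runs held 3 to 6 genes. DNA copy number was not measured in these samples, and its part in these levels was not tested.

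X149T1 was also high over the end of chromosome 6 on the centromere side. Between the first tested gene of the chromosome and Mdfic lie 28 tested genes, and X149T1 was the highest of the 23 tumors for 25 of them. For how many of all tested genes X149T1 was highest was not counted. Peg10 and Tac1, 2 of the 25, had a median of 0. They could pass the filter on low values only through tumors where they were high, X149T1 among them, which favoured the count. The median deviation of X149T1 was 2.41 over the 28, against 0.00 over all tested genes. Its values over the 28 ran from 0.92 (2610001J05Rik) to 5.31 (Sgce, which encodes epsilon-sarcoglycan). Asns, asparagine synthetase, was 9.25 in X149T1 against 6.30 in the next tumor, and C1galt1, an enzyme of O-glycan synthesis, 7.91 against 4.65. The median deviation of the other 5 tumors high in Met lay between -0.62 and 0.24 over the same genes. In X149T2, which carries the same title number, it was 0.14, with Asns at 4.94.

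**Figure D4:**
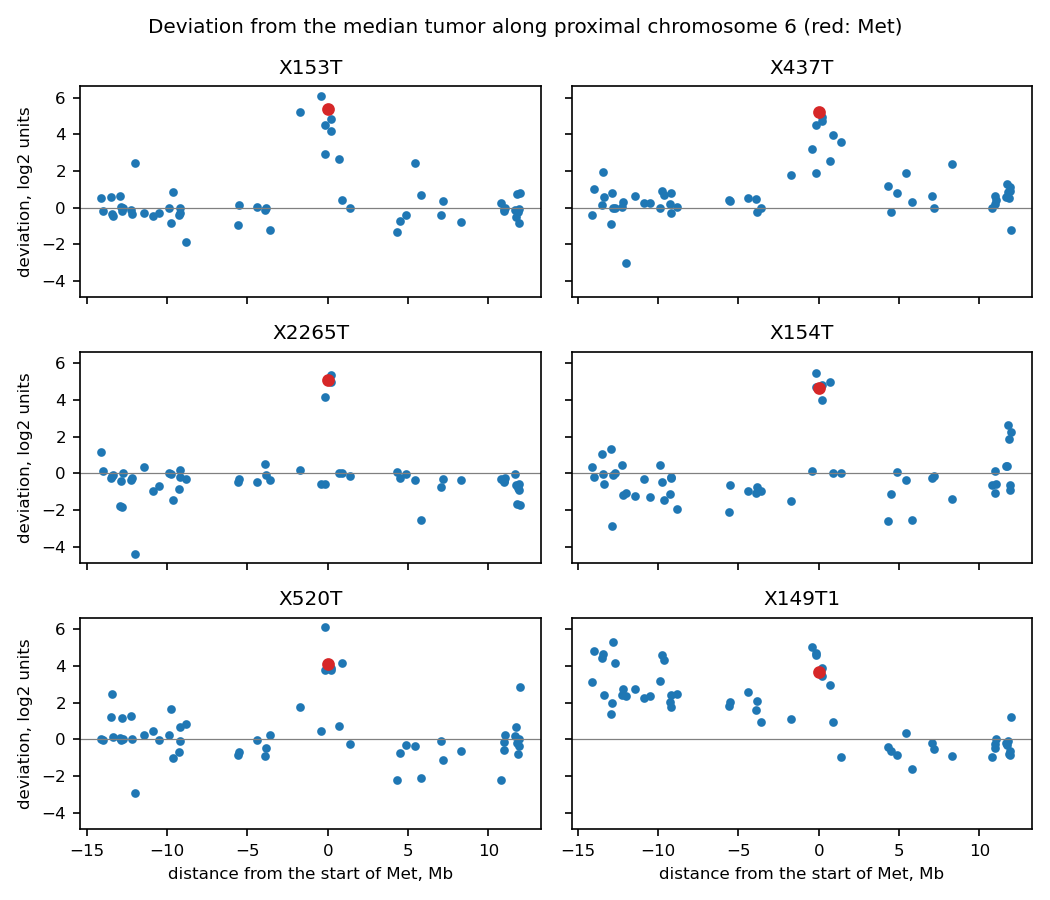
Deviation from the median tumor, in log2 units, of tested genes on proximal chromosome 6 against their distance from the start of Met in Mb, for the 6 tumors highest in Met. Met (red) and its nearest genes rise as a narrow peak in 5 tumors, while X149T1 is also raised from the start of the chromosome, with a median deviation of 2.41 over 28 genes.

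To find which transcripts followed Met over all 23 tumors, the slope of each gene on Met was fitted with limma, in log2 units per log2 unit of Met, with Benjamini-Hochberg adjustment over 12040 genes. At an adjusted p of 0.05, 7 genes had a positive slope (0.0581% of those tested) and 5 a negative one (0.0415%). Without any adjustment, 843 and 558 had p under 0.05. With 1 tumor left out the counts ran from 3 to 17 and from 0 to 8, the most of both without X738T. They were 4 and 4 after median-ratio rescaling, 10 and 4 without short non-coding RNA and 6 and 6 with a pseudocount of 0.1. Capza2 had the steepest of the positive slopes that passed, 0.77 (SE 0.068, adjusted p = 3.29e-07), then Cav2 at 0.75 (SE 0.10, adjusted p = 0.000393) and St7 at 0.69 (SE 0.070, adjusted p = 2.39e-06). Capza2, Cav2 and St7 passed without each tumor in turn.

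Those slopes rest on the 6 tumors with the most Met. Among the 17 tumors below the gap, the slope was 0.12 for Capza2, 0.08 for St7 and 0.02 for Cav2, and no gene passed there by limma, with 1633 at an unadjusted p under 0.05. With title number as a block, where only the 4 pairs inform the slope, it was 0.57 for Capza2, 0.54 for St7 and 0.66 for Cav2. No gene passed there (938 at an unadjusted p under 0.05). These blocked slopes rest mostly on X149T1 and X149T2, whose Met differed by 6.25, against 1.94 or less in the other pairs. Cav2 missed the threshold among the 15 tumors with a high immediate-early score (adjusted p = 0.0977) and against the rank of Met (adjusted p = 0.0666). Over all planned settings the adjusted p ran from 6.33e-08 to 0.0302 for Capza2, from 7.28e-07 to 0.0382 for St7 and from 0.000116 to 0.0977 for Cav2.

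The neighbours with steep slopes lay close to Met. All 7 tested genes within 1 Mb had a positive slope with an unadjusted p under 0.05, and 3 of the 7 passed the adjusted threshold. Among the 7, Cftr and Cttnbp2 passed the filter on low values mainly through tumors high in Met, which favoured a positive slope. Tfec, highest in X738T, and Wnt2, highest in X154T, lie in the same window but fell below the filter. The count of 7 therefore depends partly on the filter. Cav1 had a slope of 0.54 (adjusted p = 0.140), Tes of 0.40 (adjusted p = 0.187), Cftr of 0.34 (adjusted p = 0.108) and Cttnbp2 of 0.18 (adjusted p = 0.422) by limma. At 1 to 2 Mb, Mdfic had 0.26 (adjusted p = 0.296) and Lsm8 0.03. None of 7 genes at 2 to 5 Mb and none of 74 at 5 to 20 Mb passed, and the median slopes there were -0.03 and -0.01. Over all tested genes 0.0581% passed with a positive and 0.0415% with a negative slope. For 7 or 74 genes, none passing lies near those shares. At an unadjusted p under 0.05, 2 of the 7 genes at 2 to 5 Mb had a negative slope and 0 a positive one. Of the 74, 5 had a negative slope and 1 a positive one at that level. All tested genes gave 4.63% negative and 7.0% positive there.

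The rest of chromosome 6 leaned the other way. Of the 488 tested genes over 20 Mb from Met, 82 had a negative and 5 a positive slope at an unadjusted p under 0.05. All tested genes gave 4.63% and 7.0% at that level. Of the 488, 1 passed after adjustment. That gene was Ldhb (chr6:142490249-142507957), a subunit of lactate dehydrogenase, with a slope of -0.49 (SE 0.084, adjusted p = 0.0146 by limma). Its call was lost without X153T, with tumors of 1 title number averaged, and within the larger clusters of the epithelial and the immediate-early score, and over all planned settings the adjusted p ran from 0.00230 to 0.0977.

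Seen over the genome, chromosomes differed in how many of their genes followed Met at an unadjusted p under 0.05. Over 11825 genes with a position, 7.0% had a positive and 4.63% a negative slope at that level. On chromosome 13 it was 125 of 444 genes (28.2%) with a positive slope and 3 with a negative one, and on chromosome 16 57 of 379 (15%) with a positive slope. Chromosome 6 had 89 of 578 (15.4%) with a negative slope and chromosome 14 52 of 401 (13%). Genes of 1 chromosome are not independent, and no test was made of these shares. After median-ratio rescaling the shares over all genes became 5.72% and 6.82%, with 22.5% positive on chromosome 13 and 22% negative on chromosome 6. Among the 17 tumors below the gap in Met they were 6.06% and 7.51% over all genes, with 11.5% positive on chromosome 13, 4.49% positive on chromosome 16, 6.48% negative on chromosome 14 and 21.1% negative on chromosome 6.

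**Figure D5:**
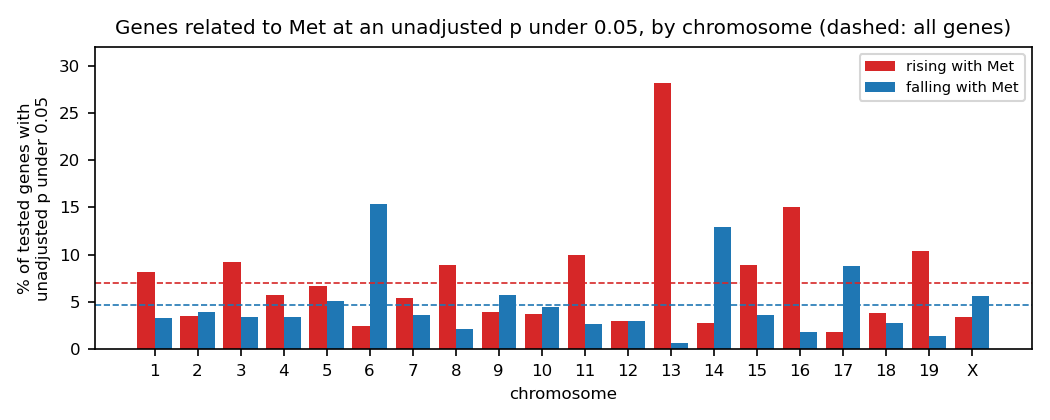
Percent of the tested genes of each chromosome with a positive (red) or negative (blue) slope on Met at an unadjusted p under 0.05, over 23 tumors, with dashed lines for all genes. Chromosome 13 reaches 28.2% positive and chromosome 6 15.4% negative, where all genes give 7.0% and 4.63%.

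The transcripts with a pattern most like that of Met were taken by Pearson's r over the 23 tumors. After Capza2 (r = 0.918), St7 (0.898) and Cav2 (0.830) came Dhx29 (0.764), Tagln2 (0.755), Them6 (0.751), Utp15 (0.741), S100a10 (0.738), Ifi203 (0.731) and Smn1 (0.730). Dhx29, a helicase of translation initiation, Utp15, a factor of ribosomal RNA processing, and Smn1, which assembles spliceosomal particles, all lie on chromosome 13 and missed the adjusted threshold, with the lowest adjusted p at 0.0616 for Dhx29. Tagln2, an actin-binding protein, had a slope of 0.22, S100a10, the partner of annexin A2, of 0.22, Them6 of 0.33 and Ifi203, of an interferon-inducible family, of 0.37. Tagln2, Them6 and Ifi203 had an adjusted p of 0.0331 by limma and S100a10 of 0.0389.

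At the opposite end were Ldhb (r = -0.763), Cyp4f17 (-0.758), Slc22a17 (-0.743), Boc (-0.732), Ccpg1 (-0.728), Ndrg2 (-0.723), Rpl21 (-0.716), Cnbp (-0.678), Thnsl2 (-0.676) and Me1 (-0.667). Boc, a co-receptor for Hedgehog ligands, had a slope of -0.40 and Ndrg2 of -0.45. Slc22a17, a lipocalin receptor, had -0.33 and Cyp4f17, a cytochrome P450, -0.25. These 4 passed with an adjusted p of 0.0331 by limma. Boc was listed at 0 in X153T, X154T and X520T and was 0.72 in X437T, 0.67 in X2265T and 0.16 in X149T1, while X147T had 4.38 and X731T the highest level, 4.42. Apart from Capza2, St7 and Cav2, each of the 12 genes that passed lost its call without at least 1 tumor, Them6 in 7 of 23 such fits and S100a10 in 18.

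The tumors with the most Hgf, the known ligand of Met, were not those with the most Met. Hgf was listed at 0 in 12 of the 23 tumors, and its highest levels were 5.63 in X92T, 3.92 in X9387T, 2.47 in X731T and 2.22 in X738T. It was 0.88 in X153T, 0.50 in X520T and 0.13 in X154T, and listed at 0 in X437T, X2265T and X149T1. Over the 23 tumors Pearson's r between Met and Hgf was 0.0476 (permutation p = 0.843) and Spearman's rho 0.156 (permutation p = 0.476), with an adjusted p of 0.843 over a family of 11 relations. Without X153T and X437T, the 2 tumors farthest from the median of Met, r was 0.10. Among the 17 tumors below the gap in Met r was 0.570, rho 0.364 and the adjusted p 0.0804, and X92T and X9387T, the highest of these in Met, were also the highest in Hgf.

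None of the 43 pathway genes tested beside Met passed the limma fit. Over all tested genes 0.0581% passed with a positive and 0.0415% with a negative slope. For 43 genes, none passing lies near those shares. At an unadjusted p under 0.05, 8 of the 43 had a positive and 1 a negative slope, where all tested genes gave 7.0% and 4.63%, and the median slope was 0.045 against 0.012 over all tested genes. Among activators of Hgf, St14 (matriptase) had a slope of -0.03 and ran from 0, listed in 1 tumor, to 7.68. Hpn (hepsin) had -0.33 (adjusted p = 0.360) and Plau (urokinase) 0.08. Their inhibitors Spint1 and Spint2 had 0.00 and -0.11, with medians of 5.41 and 7.94. Furin, which cuts the Met precursor, had 0.11 (adjusted p = 0.360).

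Among partners of the receptor, Plxnb2, a semaphorin receptor, had a slope of 0.15 (adjusted p = 0.137 by limma) and was highest in X2265T at 7.29. Cd44, a co-receptor, had 0.20 (adjusted p = 0.286) and was highest in X9387T at 8.10. The docking protein Gab1 had a slope of -0.04 and stayed between 2.33 and 4.63. Mst1r, which encodes the related receptor Ron, was listed at 0 in 15 tumors and reached 3.52 in X738T, with a mean FPKM under the filter. Egfr, another receptor kinase, had a slope of -0.04. Among brakes on the receptor, Cbl, the ubiquitin ligase that turns Met over, had 0.02 and the phosphatase Ptprj 0.10 (adjusted p = 0.384).

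None of the 14 tested transcripts known to be raised by MAPK signalling passed the limma fit on Met. Over all tested genes 0.0581% passed with a positive and 0.0415% with a negative slope. None of the 14 had an unadjusted p under 0.05, where all tested genes gave 7.0% and 4.63%. For 14 genes these counts lie near the shares over all tested genes. Dusp6, a phosphatase of Erk, had a slope of -0.10, Spry1 of -0.16 and Etv5 of -0.20, which were among the lowest of the list. Epha2 at 0.12, Ccnd1 at 0.08, Dusp4 at 0.07 and Spred2 at 0.02 went the other way. The median slope of the list was -0.03, against 0.012 over all tested genes. The score of the list had r = -0.193 with Met (permutation p = 0.375, rho -0.120, adjusted p = 0.711). Without X153T and X437T the sign stayed negative.

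No relation of Met with a lineage score passed adjustment. None of the 12 tested study markers passed the limma fit, where 0.0581% of all tested genes passed with a positive and 0.0415% with a negative slope. Nor did any of them at an unadjusted p under 0.05, where all tested genes gave 7.0% and 4.63%. For 12 genes these counts lie near the shares over all tested genes. The luminal keratin Krt8 had a slope of -0.05 and the basal keratin Krt14 of 0.22 (SE 0.20). Krt14 was 9.84 in X154T, 8.57 in X153T, 6.98 in X149T1, 6.24 in X437T, 4.57 in X2265T and 2.43 in X520T. Epcam was 9.23 in X437T, 9.18 in X149T1, 8.58 in X153T, 8.46 in X2265T, 6.97 in X154T and listed at 0 in X520T. Vim, the mesenchymal filament gene, was highest in X520T, 10.20 in X149T1 and 7.30 in X2265T. The 6 tumors with the most Met thus held both high and low levels of each of these 3 markers.

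Among the 19 tumors with epithelial genes, r between Met and the epithelial score was 0.418 (permutation p = 0.0747), rho 0.553 (permutation p = 0.0160) and the adjusted p 0.411. It was 0.289 without X153T and X437T and 0.291 (rho 0.357) with tumors of 1 title number averaged. Among the 14 of these tumors below the gap in Met, r was 0.692, rho 0.670 and the adjusted p 0.0631. The mesenchymal score had r = 0.181 (rho 0.219, adjusted p = 0.711) and the fibroblast score r = 0.0666 (rho 0.137, adjusted p = 0.843) over 23 tumors. Within the larger clusters of their scores, the basal list had r = 0.177 over 20 tumors (rho 0.220) and the luminal progenitor list 0.156 over 18 (rho 0.179), and the permutation p was 0.452 and 0.534. Over 23 tumors the 14 luminal progenitor genes tested had a median slope of -0.13, against 0.012 over all tested genes. At an unadjusted p under 0.05, 2 of the 14 had a negative and 0 a positive slope, where all tested genes gave 4.63% and 7.0%. Met had a median of 5.67 in the 5 tumors low in this score and of 3.81 in the other 18. Esr1, the estrogen receptor, was listed at 0 in 19 tumors. Brca1 itself had a slope of 0.11 and Trp53 of 0.05, with adjusted p of 0.469 and 0.906 by limma.

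Among the markers of other cells a tumor piece can hold, macrophage genes had the highest median slope on Met, 0.26 over 13 tested genes. None of these passed, and 4 of the 13 had a positive slope at an unadjusted p under 0.05, where all tested genes gave 843 of 12040 (7.0%). None of the 15 fibroblast, 11 endothelial or 7 neutrophil genes tested passed or had an unadjusted p under 0.05. All tested genes gave 7.0% positive and 4.63% negative at that level, and 0.0581% and 0.0415% passed. For so few genes these counts lie near the shares over all tested genes. Of 5 skeletal muscle genes tested, 1 had a positive slope at an unadjusted p under 0.05, and none passed. The macrophage score lay between -0.22 and 1.18 in the 6 tumors with the most Met. Outside them it was about as high in X9387T (1.16), X738T (1.07) and X4351T (1.00), and lowest in X370T at -2.49. The part of macrophages in these slopes was not tested.

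The immediate-early score had r = -0.420 with Met among the 15 tumors where it was high (permutation p = 0.119, rho -0.346, adjusted p = 0.437). Among the 8 where it was low, r was 0.166 (exact permutation p = 0.767, rho -0.0476). The proliferation score had r = 0.288 over 23 tumors (rho 0.261, permutation p = 0.183, adjusted p = 0.503). The mean score of the genes within 1 Mb of Met divided the tumors itself, and r with Met was 0.609 among the 18 tumors below its gap (permutation p = 0.0170, rho 0.319, adjusted p = 0.187). That value came down to 0.151 without X2265T, the 1 of these 18 that lay above the gap in Met.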

How the data were processed

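RNA of 23 tumors was sequenced from TRIzol extracts with the NEBNext Ultra RNA kit, as paired-end Illumina reads. The authors deposited 1 table of log2(FPKM + 1) for 14535 genes. Per the submitters' processing notes they trimmed reads with Trimmomatic 0.35, aligned them to mm10 with TopHat2 2.0.13 (another TopHat release is named in the study's methods) and quantified FPKM with Cufflinks 2.2.1. Genes without expression in any sample had been removed by the authors. FPKM keeps no counts, so depth and counting error are unknown, and an exact 0 may be a failed estimate, since 54 genes with a median of 5 or more were listed at 0 in some tumor. Strandedness is not given in the sources that were used, so overlapping transcripts cannot be told apart.

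Symbols were matched to GENCODE M21 on GRCm38, the assembly behind mm10: 13982 directly, 437 by an older symbol and 116 not at all. Genes whose FPKM averaged 1 or more were tested with limma 3.58.1 (R 4.3.3, trend option, two-sided), as a slope on Met with Benjamini-Hochberg adjustment at 0.05. Relations were measured by Spearman's rho and Pearson's r, each with a two-sided permutation test of 100000 draws, or exact enumeration under 10 tumors, in scipy 1.17.1. A list score is the mean z of its members. Where the largest gap of a measure, with at least 3 tumors on each side, took 25% or more of its range, only clusters of 6 or more tumors were used. The gap in Met took 24.9% and was kept in 1 piece by this rule. The fits were tested on simulated data.

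Met, the lists and the tests were chosen with earlier results of these data known. Named genes were Met, pathway members, study markers, genes within 1 Mb or the nearest on each side, and the 10 highest and 10 lowest r with Met. Sgce, Asns, C1galt1, 2610001J05Rik, Peg10, Tac1, and the pathway, MAPK and neighbouring genes beyond these, were chosen after their values were seen. The alternatives were another pseudocount (0.1), 2 rescalings, no filter, averaging of tumors with 1 title number, 2 covariates, rank of Met, fewer tumors, other windows and, chosen after seeing the data, the 17 tumors below the gap in Met, title number as a block and a run deviation of 3.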

Additional observations from a re-analysis of the deposited data

How the results depend on the processing

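The numbers of genes with a positive and a negative slope on Met, 7 and 5 over all tumors, moved with many settings. They were 4 and 4 after median-ratio rescaling, 4 and 1 with tumors of 1 title number averaged, 17 and 14 with immediate-early genes as a covariate, 16 and 9 with the mesenchymal minus epithelial score as a covariate, and 3 and 2 without X153T and X437T, the 2 whose Met lay farthest from its median. They were 5 and 1 among the 19 tumors with epithelial genes, 2 and 0 among the 15 with a high immediate-early score, 2 and 1 on the rank of Met, and 0 and 0 among the 17 tumors below the gap in Met (limma, 1633 at an unadjusted p under 0.05). They were 10 and 5 with no filter on low values. With 1 tumor left out they ran from 3 to 17 and from 0 to 8. The positive count moved by over 1.5 times without X1463T2, X147T, X149T1, X149T2, X153T, X154T, X2265T, X4351T, X520T, X606T or X738T. The negative count did so without the same tumors except X149T1, and without X437T, X493T2 or X731T. The cause was not tested, beyond the smaller number of tumors where tumors were left out.

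No relation of Met passed adjustment under any setting. With the mesenchymal minus epithelial score as a covariate, r reversed for Hgf (-0.0336) and the fibroblast score (-0.0159). Among the 17 tumors below the gap it reversed for the basal (-0.0521), immediate-early (0.143 in the larger cluster) and proliferation (-0.222) scores. In the smaller immediate-early cluster it was -0.0327 without X437T and -0.0173 among tumors with epithelial genes. With 1 tumor left out, r ran from -0.0893 (without X154T) to 0.255 for the fibroblast score and from -0.0327 (without X437T) to 0.498 for the smaller immediate-early cluster. The count of 3 genes that passed near Met was the same for windows of 1, 2 and 5 Mb. With title number as a replicate block, where only the 4 pairs inform the slope, the counts were 0 and 0 by limma, with 938 genes at an unadjusted p under 0.05. The labels do not say that a number marks 1 mouse. With depth unknown, low values such as those of Hgf, Cftr and Wnt2 cannot be given a counting error.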

Other observations

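The chromosome with the largest share of genes that had a positive slope on Met had a median deviation that differed between tumors. The median deviation of the tested genes of chromosome 13 was 0.56 in X2265T, 0.47 in X437T, 0.27 in X520T, 0.15 in X154T, 0.14 in X153T and 0.13 in X149T1. In the other tumors it ran from -0.52 in X1463T2 to 0.18 in X1463T1. Over all tested genes the same median was 0.18 in X2265T, 0.12 in X437T, 0.18 in X520T, 0.00 in X154T and X149T1, and -0.02 in X153T. Genes of chromosome 6 more than 20 Mb beyond Met had their highest median deviations in X493T2 (0.67) and X606T (0.45), both among the tumors with low Met.

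The RefSeq promoter windows of the 3 genes that shared the highest tumors with Met differed in the motifs searched. Cav2 held 1 AP-1 motif and 1 GC box, Capza2 no AP-1 motif and 1 GC box, and the 3 windows of St7 neither. GC content was 75.7% for Met, 64.3% for Cav2, 73.0% for Capza2 and from 45.3% to 58.7% for St7, against a median of 52.7% over all windows.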
